A study of Mus musculus with 80 samples.

Results

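The 10 cytosolic heat shock genes described here were Hsf1, Hspa1a, Hspa1b, Hspa8, Hspa4, Hsph1, Dnajb1, Hsp90aa1, Hsp90ab1 and Hspb1. They were chosen by symbol, and all 10 were present among the 23337 genes of the table. All 10 also passed the filter on low values in each of the 4 experiments, so none was left out of any test.

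The cytosolic heat shock response is the way a cell adds protein-folding capacity when its proteins begin to unfold. HSF1, its transcription factor, is held back by the chaperones it controls, and once released it binds heat shock elements in the promoters of genes such as Hspa1a, Dnajb1 and Hspb1. HSP70 proteins bind unfolded stretches of protein in a cycle of ATP hydrolysis that J-domain co-chaperones start and nucleotide exchange factors end, and HSP90 takes over partly folded clients such as kinases and steroid receptors. AgRP neurons, the hunger-promoting cells of the arcuate hypothalamus (ARH) that release AgRP, neuropeptide Y and GABA, are driven by fasting and quietened by food and leptin.

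Gene positions are given on GRCm38 (mm10). Hsf1 (chr15:76477422-76501913, plus strand) encodes the heat shock transcription factor. Hspa1a (chr17:34969190-34972156, minus strand) and its neighbour Hspa1b (chr17:34956436-34959238, minus strand) encode the near-identical stress-inducible HSP70 proteins. Hspa8 (chr9:40800984-40810087, plus strand) encodes HSC70, the constitutive HSP70, which also strips clathrin from vesicles. Hspa4 (chr11:53259814-53300457, minus strand) and Hsph1 (chr5:149614287-149636376, minus strand) encode HSP110 proteins, which act as nucleotide exchange factors of HSP70. Dnajb1 (chr8:83608193-83612653, plus strand) encodes HSP40, the J-domain partner that hands substrates to HSP70. Hsp90aa1 (chr12:110690605-110702728, minus strand) encodes the more inducible HSP90 and Hsp90ab1 (chr17:45567775-45573271, minus strand) the more constitutive form. Hspb1 (chr5:135887919-135889563, plus strand) encodes a small heat shock protein, HSP25 in the mouse, that holds unfolded proteins without using ATP. Short reads cannot always separate these genes from their copies: of the 50-base windows of the transcripts, 60.3% of Hspa1a, 62.3% of Hspa1b, 51.4% of Hspa8, 58.5% of Hsp90aa1 and 51.6% of Hspb1 also occurred in another gene. The values of these 5 genes are uncertain to that degree, and for Hspa1a and Hspa1b the other gene was chiefly the respective partner.

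HSF1 binds repeats of GAA in alternating orientation. RefSeq promoters (GRCm38.p6) were matched for 6 of the 10 members, not for Hspa8, Hsp90aa1, Hsp90ab1 and Hsf1, and the 250 bases before each start site were searched on both strands for a pair of such units, GAANNTTC or TTCNNGAA, where N is any base. Hspa1a, Hspa1b, Hsph1 and Hspb1 held a match, and 12.8% of the 32851 promoters of the same length did. The stretch around each match is printed below in the direction of transcription, with the match in capitals, because all 4 genes passed the test in at least 1 fasting comparison described below.
Hspa1a: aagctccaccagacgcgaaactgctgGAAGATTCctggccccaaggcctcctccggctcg
Hspa1b: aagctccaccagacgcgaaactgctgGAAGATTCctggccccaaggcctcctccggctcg
Hsph1: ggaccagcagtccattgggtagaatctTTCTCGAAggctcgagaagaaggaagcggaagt
Hspb1: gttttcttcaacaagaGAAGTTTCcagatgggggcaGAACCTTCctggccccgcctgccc
The Hspa1a stretch lies at chr17:34972227-34972286 on the minus strand, 130 to 71 bases before the start site, and the identical Hspa1b stretch at chr17:34959309-34959368 on the same strand. Over the whole 250 bases the Hspa1a and Hspa1b promoters shared 247 bases (98.8%). The Hsph1 stretch lies at chr5:149636337-149636396 on the minus strand, 60 to 1 bases before one of its start sites. The Hspb1 stretch, at chr5:135887786-135887845 on the plus strand, 133 to 74 bases before the start site, held 2 matches. The longer triplet form, GAANNTTCNNGAA or TTCNNGAANNTTC, was in 153 of the 32851 promoters and in no window of the 6 genes. The windows of Dnajb1 and Hspa4 held neither form, which says only that these letters are not there. A match is a description of the sequence, not a measured binding site.

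The study measured RNA of mouse AgRP neurons by sequencing in 80 libraries of 20 groups, and asked how nutrient state, leptin, time of day and loss of the clock factor BMAL1 shape their transcriptome. Times are zeitgeber times (ZT), in hours after lights on. In the first experiment, 33 libraries came from NPY::hrGFP mice, in which Npy-expressing cells fluoresce, and the fluorescent cells were sorted by flow cytometry from dissociated ARH slices. Those mice were fed ad libitum (6 libraries at ZT2, 3 at ZT14), fasted for an effective 24 h (7 at ZT2, 8 at ZT14), or fasted in the same way and refed for 1 h (5 at ZT2, 4 at ZT14). In the second, 17 libraries came from AGRP-Cre;RiboTag mice, in which Cre under Agrp control tags a ribosomal protein, so that the RNA is ribosome-bound and was immunoprecipitated from tissue. Those mice were fed ad libitum (3 at ZT2, 4 at ZT14) or fasted for 24 h (5 at each time). In the third, 25 libraries came from AGRP-Cre;BMAL1fx knockouts and WT;BMAL1fx controls, which carry the floxed allele without Cre, after leptin or PBS at ZT2 or ZT14 (3 in each group, 4 for control PBS at ZT2). The fourth held 3 AGRP-Cre;BMAL1fx and 2 WT;BMAL1fx libraries at ZT5 with no treatment named. Age, sex and the number of mice behind a library were not given in the sources used here. The labels number the replicates without saying that they are separate mice, so p-values measure the spread between these libraries only. In such bulk samples, fewer cells of a type and less RNA per cell cannot be told apart.

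Recovered read totals ran from 5925102 to 33976545 per library (median 14273214), with 12672 to 18065 genes above 0. The summed level of 8 AgRP neuron markers was 149889 or more outside the RiboTag libraries and 18079 or more within them. The RiboTag libraries also held more RNA of other cells: the summed level of 6 oligodendrocyte markers was 8734 to 222393 there against 275 to 4635 in the other 63 libraries, and that of 6 endothelial markers 814 to 32646 against 0 to 92.3. Hsd11b2 was at 1048 to 3971 in the RiboTag and leptin-series knockout libraries and at 0 to 23.3 in the sorted and leptin-series control libraries. At ZT5 the library labelled control replicate 1 had 4628 and the library labelled knockout replicate 3 had 11.2, so these went against their labels. A further 4 libraries stood apart: sorted ad libitum ZT2 replicate 4, whose values are not whole read multiples, RiboTag fasted ZT2 replicates 3 and 5, with the highest value sums of all libraries, and sorted refed ZT2 replicate 4, with the highest value sum and the fewest genes above 0 of the sorted libraries. Where leaving out the libraries that stood apart or went against their labels ended a call, the value without them is given, and no other call of the 10 genes was lost. All 25 fasted libraries also differed from the 50 fed, refed and leptin-series ones in Cebpb (42.5 to 1565 against 0 to 17.1), Alyref (545 to 2756 against 12.3 to 81.8) and, with overlap, the ribosomal precursor Rn45s (1725 to 148448 against 50805 to 963336), and the ZT5 libraries sat with the fasted ones. The part of this pattern, and of the other RNA, in the results below was not tested.

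Values are the deposited normalised counts. Levels were averaged over the 80 libraries per kilobase of exon sequence, with the exons of all transcripts of a gene merged. Hsp90ab1 (12686 per kb) and Hspa8 (11099 per kb) stood far above the rest. Hsp90aa1 (3575), Hsph1 (1034), Dnajb1 (823), Hspa1a (242), Hspb1 (239), Hspa4 (233), Hspa1b (152) and Hsf1 (115) followed. The merged length was 7099 bases for Hsf1 and 4301 for Hspa8, against 3133 and 3158 in the longest transcript. The order of members with close values therefore depends on the length used. The constitutive HSP90 and HSP70 genes were the most abundant members. Hsp90ab1 was also the steadiest member, with a within-group SD of 0.27 on the log2 scale, and Hspb1 the least steady, with 1.18, against a median of 0.53 over 11264 genes. Between the lowest and the highest group mean, Hspa1b spanned 25.4-fold, Hspa1a 12-fold, Hspb1 10.1-fold, and each of the other 7 members 1.92 to 3.69-fold. Hspa1a and Hspa1b were lowest in RiboTag fasted ZT2 (96.3 ± 40.1 and 30.3 ± 15.9, SD, n = 5) and highest in sorted fasted ZT14 (1159 ± 411 (SD, n = 8) and 768 ± 436 (SD, n = 8)). When the 20 group means of a gene were put in order, neighbours lay within 1 SD of each other in 18 of 19 steps for Hspa1a, 17 of 19 for Hspa1b and all 19 for the other 8 genes. The exceptions were the step from RiboTag ad libitum ZT2 down to RiboTag fasted ZT14 for Hspa1a, and, for Hspa1b, the steps from ZT5 knockout down to RiboTag fasted ZT14 and from there to RiboTag fasted ZT2.

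**Figure D1:**
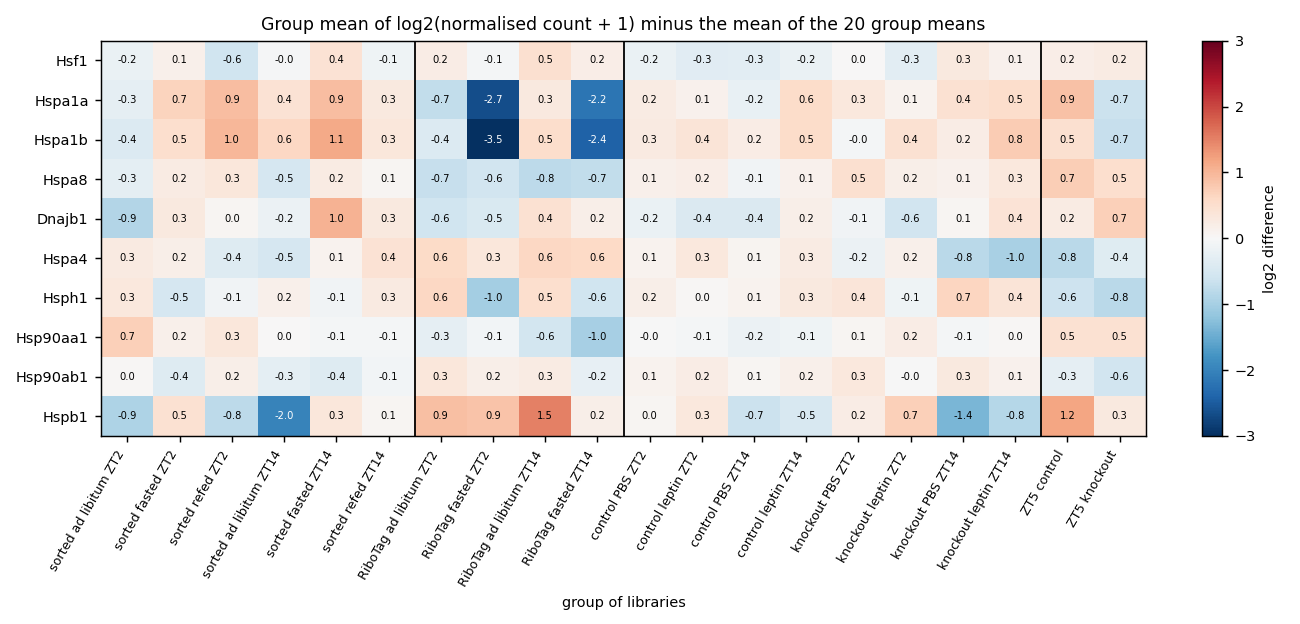
Mean log2(normalised count + 1) of the 10 genes in the 20 groups, each minus the gene's mean over the 20 group means, with colour from blue (lower) to red (higher), full at 3 log2 units. The lowest cells are those of Hspa1a and Hspa1b in the fasted RiboTag groups, and Hspb1 is lowest in the sorted ad libitum ZT14 group.

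Fasting in sorted cells. This comparison asks what 24 h without food does to the cells in the early light phase (ZT2) and the early dark phase (ZT14). Of the 10 genes, 4 rose and 3 fell at ZT2, where 18.3% of all tested genes passed the threshold (limma adjusted p under 0.05) as higher and 19.2% as lower. At ZT14 3 rose and 0 fell, against 9.66% and 8.81% of all genes. Dnajb1 and Hspa8 rose at both times. Hspb1 also rose at both, Hspa1a rose at ZT2, and Hsph1, Hsp90aa1 and Hsp90ab1 fell at ZT2. The median log2 difference of the 10 genes was 0.44 at ZT2 and 0.52 at ZT14, against -0.02 and -0.04 over all genes tested. By edgeR on recovered reads, 4 of the 10 passed at ZT2 (33.5% of all genes did) and 3 at ZT14 (17.6%).

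Hsf1, the regulator, did not pass at either time. For groups of more than 5 libraries the lowest, the median and the highest value are given, and for smaller groups every value. At ZT2 the 6 ad libitum libraries had Hsf1 at 460.1, 677 and 1001 and the 7 fasted ones at 629, 834 and 1068, with overlap (log2 difference 0.33 ± 0.18 (SE), limma adjusted p = 0.151). At ZT14 the 3 ad libitum libraries had 668, 809.9 and 822 and the 8 fasted ones 913, 1041 and 1222. All 8 fasted libraries lay above all 3 ad libitum ones, as was the case for 8.71% of genes, but the difference did not pass the test (log2 difference 0.47 ± 0.22 (SE), limma adjusted p = 0.139). With a correction for GC content and length, Hsf1 did pass at both times (log2 difference 0.59, limma adjusted p = 0.00656 at ZT2 and 0.65, limma adjusted p = 0.024 at ZT14).

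Of the inducible HSP70 genes, Hspa1a rose in fasted sorted cells at ZT2 and Hspa1b did not pass. Hspa1a stood at 309, 429 and 794 in the 6 ad libitum libraries and at 542, 840.3 and 1576 in the 7 fasted ones. The 3 highest fasted libraries lay far above all ad libitum ones and the 3 lowest within their range. The means were 507 ± 213 (SD, n = 6) and 980.4 ± 405 (SD, n = 7), an increase of 1.92-fold (95% interval 1.32 to 2.8) (limma adjusted p = 0.00539, edgeR adjusted p = 0.0192). With the GC and length correction it did not pass (0.40, limma adjusted p = 0.199). Hspa1b stood at 115, 208 and 509.7 ad libitum and 95.2, 493 and 923 fasted, and 1 fasted library, replicate 3, lay below all ad libitum ones. Its difference was close in size to that of Hspa1a but did not pass the test (log2 difference 0.92 ± 0.42 (SE), limma adjusted p = 0.083), except without fasted replicate 3 (1.28, limma adjusted p = 0.00746) or without ad libitum replicate 2 or 6 (1.10 and 1.15, limma adjusted p = 0.048 and 0.037). At ZT14 neither passed: Hspa1a had 575, 815 and 971 ad libitum and 654, 1185 and 1809 fasted (log2 difference 0.51 ± 0.33 (SE), limma adjusted p = 0.291), and Hspa1b had 386, 498 and 522 ad libitum and 375, 562 and 1533 fasted (log2 difference 0.54 ± 0.51 (SE), limma adjusted p = 0.499).

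**Figure D2:**
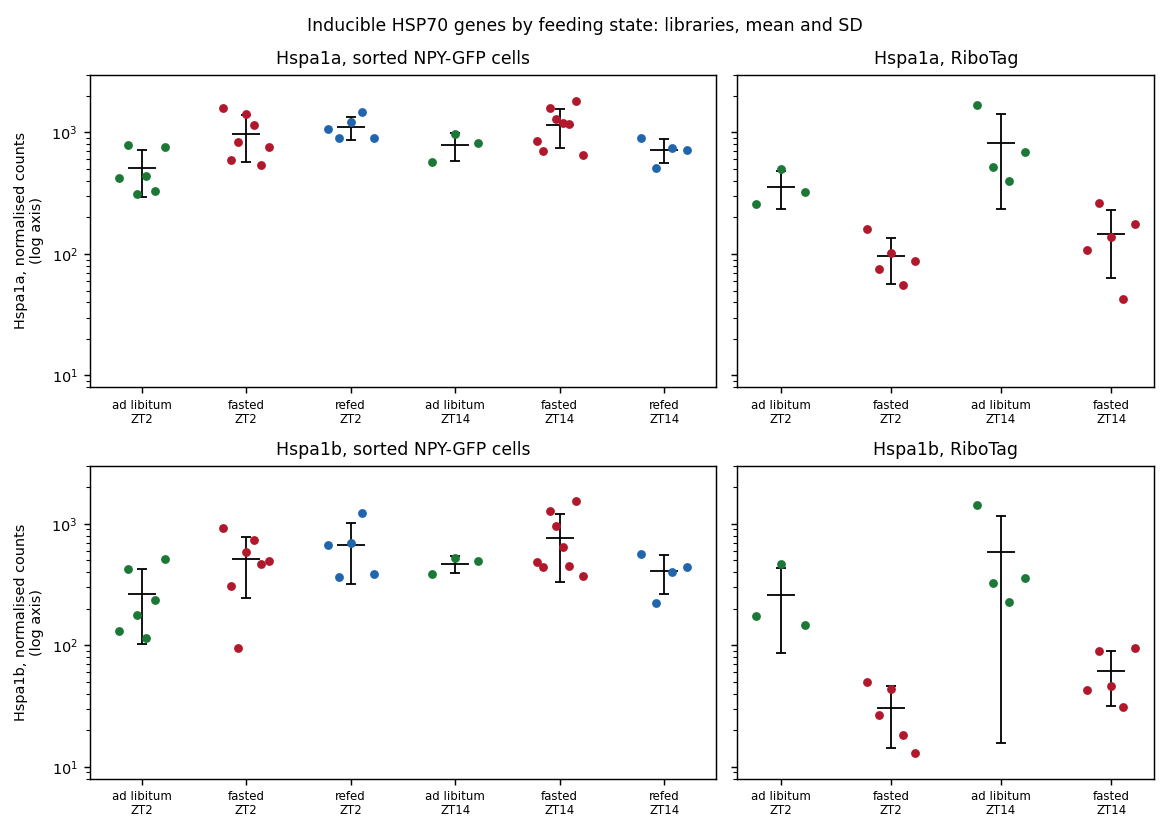
Normalised counts of Hspa1a and Hspa1b in each library (points, log axis) with the group mean and SD (bars), in the 6 sorted and the 4 RiboTag groups. In sorted cells the fasted and refed ZT2 libraries reach 1576 and 1462 for Hspa1a against 794 ad libitum. All fasted RiboTag libraries lie below all ad libitum RiboTag ones at the same time, as held for 11.1% of genes at ZT2 and 8.00% at ZT14.

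Constitutive HSP70 rose at both times. Hspa8 stood at 31099.6, 37349 and 44131 in the ad libitum and 38388, 52238 and 88746 in the fasted libraries at ZT2. At ZT14 the ad libitum libraries had 29726, 32746 and 34987 and the fasted ones 26185, 59073 and 79317. The fasted groups were wide, and 1 fasted ZT14 library, replicate 5, was below all ad libitum ones. The increase was 1.46-fold (95% interval 1.07 to 1.99) at ZT2 (limma adjusted p = 0.0471, edgeR adjusted p = 0.0238) and 1.67-fold (95% interval 1.15 to 2.44) at ZT14 (limma adjusted p = 0.0487, edgeR adjusted p = 0.0274). Both sat at the threshold: leaving out 1 library ended the call in 10 of 13 cases at ZT2 and in 9 of 11 at ZT14, with limma adjusted p up to 0.125 and 0.181. The call passed under 5 of 9 other settings at ZT2 and 6 of 8 at ZT14.

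Dnajb1, the J-domain starter of the HSP70 cycle, gave the firmest increase. At ZT2 it stood at 853, 1279.9 and 2044 in the ad libitum and 2026, 3095 and 4111 in the fasted libraries. A single ad libitum library, replicate 6, reached the level of the fasted group, and 6 of the 7 fasted libraries lay above all ad libitum ones. At ZT14 it stood at 1576, 2135 and 2454 ad libitum and 3703, 4712 and 6963 fasted. All 8 fasted libraries lay above the ad libitum ones, as held for 8.71% of genes. The increase was 2.23-fold (95% interval 1.64 to 3.02) at ZT2 (log2 difference 1.15 ± 0.22 (SE), limma adjusted p = 7.56e-05) and 2.31-fold (95% interval 1.59 to 3.36) at ZT14 (log2 difference 1.21 ± 0.26 (SE), limma adjusted p = 0.00132). It passed under all 9 and all 8 other settings tried at the respective time, and without any of the libraries of these groups.

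The exchange factors of the HSP110 family did not rise. Hsph1 fell at ZT2, from 7367, 9156 and 11092 ad libitum to 3174, 4956 and 7813 fasted, and 6 of 7 fasted libraries lay below all ad libitum ones. The means were 9066 ± 1355 (SD, n = 6) and 5325 ± 1625 (SD, n = 7) (log2 difference -0.81 ± 0.18 (SE), limma adjusted p = 0.000513), and the decrease passed under all 9 settings. At ZT14 Hsph1 had 7155, 8001 and 9112 ad libitum and 5698, 6329 and 8041 fasted, and it did not pass (log2 difference -0.26 ± 0.22 (SE), limma adjusted p = 0.432). Hspa4 varied widely, with 997, 1353 and 1755 ad libitum and 779, 1039 and 2564 fasted at ZT2. At ZT14 it had 369.6, 609 and 2113 ad libitum and 823, 1322 and 1677 fasted. Its difference was -0.11 ± 0.34 (SE) and 0.61 ± 0.42 (SE) (limma adjusted p = 0.832 and 0.324), and without the highest ad libitum ZT14 library, replicate 3, the latter was 1.33, limma adjusted p = 0.0412.

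The HSP90 genes were lower in fasted cells at ZT2. Hsp90aa1 stood at 16946, 19464 and 32559.8 ad libitum and 10406, 15149 and 17866 fasted, with the high values in ad libitum replicates 4 and 5. Hsp90ab1 stood at 34987, 37647 and 45299.8 ad libitum and 19480.0, 27902 and 39202 fasted, again with overlap. The decreases were small (log2 difference -0.57 ± 0.21 (SE), limma adjusted p = 0.0343, and -0.41 ± 0.16 (SE), limma adjusted p = 0.043), and neither passed by edgeR (edgeR adjusted p = 0.0531 and 0.081). Without ad libitum replicate 4, the library whose values are not whole read multiples, they were -0.45, limma adjusted p = 0.108, and -0.36, limma adjusted p = 0.0907. Leaving out 1 other library ended the call of Hsp90aa1 for ad libitum replicate 5 and fasted replicates 4 and 6 (-0.49, -0.49 and -0.52), and that of Hsp90ab1 in 8 of 13 cases in all, with limma adjusted p up to 0.118. At ZT14 Hsp90aa1 had 9786, 14834 and 15888 ad libitum and 5340.0, 14600.5 and 17661 fasted. Hsp90ab1 had 26845, 32081 and 34876 ad libitum and 23132, 29004 and 35132 fasted, and neither passed (log2 difference -0.07 and -0.12).

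The small heat shock gene Hspb1 had the largest fold change of the 10 genes at both times. Its level was low in the ad libitum groups, 59.5, 84.5 and 129 at ZT2 and 9.21, 62.5 and 108 at ZT14. In the fasted groups it was 119, 236 and 458 at ZT2 and 64, 304 and 466 at ZT14. Most fasted libraries were high, with fasted ZT14 replicates 5 and 6 inside the ad libitum range. The increase was 2.61-fold (95% interval 1.23 to 5.52) at ZT2 (limma adjusted p = 0.039, edgeR adjusted p = 0.0578) and 5.06-fold (95% interval 2.03 to 12.6) at ZT14 (limma adjusted p = 0.0103, edgeR adjusted p = 0.0365). The ZT2 call passed under only 3 of the 9 other settings and was lost, among others, with the GC and length correction (0.87, limma adjusted p = 0.139). It was also lost in 8 of 13 cases of 1 library left out (limma adjusted p up to 0.0871). Without ad libitum replicate 4, which stood apart, the ZT2 difference was 1.28, limma adjusted p = 0.0789. The ZT14 call was lost without ad libitum replicate 2, at 9.21 the lowest Hspb1 value of all libraries (1.33, limma adjusted p = 0.249). Markers of other cells moved in these libraries too. The summed level of 6 tanycyte markers was 199 to 504 ad libitum and 711 to 6190 fasted at ZT2, without overlap, and 492 to 645 and 638 to 3958 at ZT14. That of 8 astrocyte markers was 3195 to 6008 and 2972 to 38232 at ZT2, and 5392 to 5435 and 2184 to 33384 at ZT14. The median of this astrocyte sum was lower in the fasted group each time, with 4353 ad libitum and 4219 fasted at ZT2, and 5412 and 3821 at ZT14. At ZT14 Aqp4 and Gja1, 2 of the 8 astrocyte markers, were at 0 in all ad libitum libraries, as were the tanycyte markers Crym and Gpr50. In refed ZT2 libraries the tanycyte sum was 629 to 1271. The part of these cells in the fasting results was not tested.

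**Figure D3:**
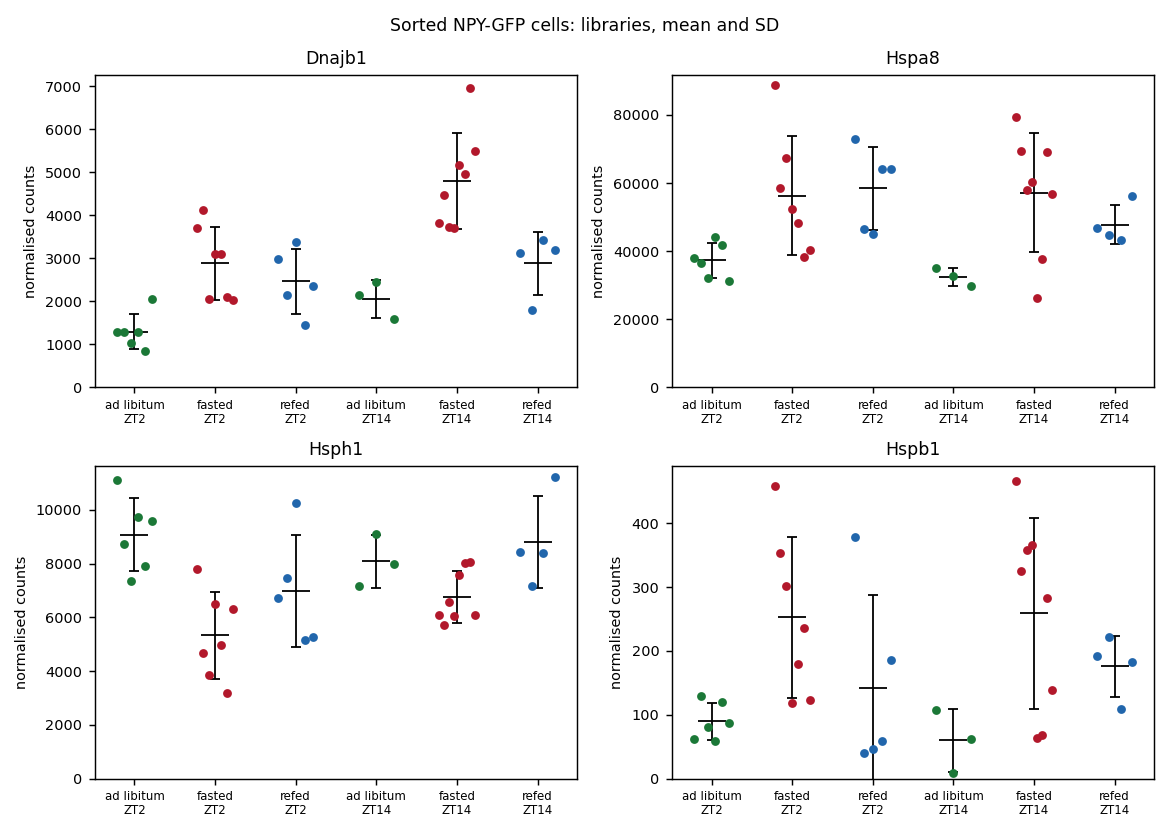
Normalised counts of Dnajb1, Hspa8, Hsph1 and Hspb1 in each sorted library (points) with the group mean and SD (bars), for ad libitum, fasted and refed groups at ZT2 and ZT14. All 8 fasted ZT14 libraries lie above the ad libitum ones for Dnajb1, as held for 8.71% of genes. Hsph1 is lower in 6 of 7 fasted ZT2 libraries than in any ad libitum one.

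The effect of fasting at ZT2 was not shown to differ from that at ZT14 for any of the 10 genes: none passed the test of the difference by limma or edgeR, none had an unadjusted p under 0.05, and 0% of all genes passed. Immediate early genes, known as a class to be switched on both by firing and by dissociating tissue, moved in the same libraries. Of 12 such genes, 9 passed as higher in the fasted ZT2 group and 6 in the fasted ZT14 group, where 18.3% and 9.66% of all genes did. As lower, 0 passed, against 19.2% and 8.81% of all genes. Jund was among the higher ones (log2 difference 4.18 and 4.01), and it rose in RiboTag RNA as well. The summed level of the 12 genes was 8620 to 25719 in the ad libitum and 25734 to 55540 in the fasted ZT2 libraries, and 17390 to 21717 and 30141 to 47199 at ZT14. Their part in the chaperone results was not tested.

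Partners of the HSP70 and HSP90 cycles were examined as lists. Of 8 J-domain co-chaperones, 6 rose and 0 fell at ZT2, with a median log2 difference of 0.72, and 3 rose at ZT14 (median 0.43), where 18.3% and 9.66% of all genes passed as higher. Dnaja4 rose in both (1.30 ± 0.21 and 1.20 ± 0.25, SE), as did Dnajb5 (1.58 and 2.34), a close relative of Dnajb1, and Dnajb2 rose at ZT14 (1.15). Dnajb6, which keeps polyglutamine proteins from aggregating, and Dnajc7, which links HSP70 to HSP90, rose at ZT2 (0.78 and 0.68). Of 11 exchange factors and other HSP70 partners, 6 rose and 2 fell at ZT2 (median 0.79) against 18.3% and 19.2% of all genes, and 1 rose at ZT14 (median 0.30), close to the 9.66% of all genes. Bag1, an exchange factor that couples HSP70 to the proteasome, rose from 559 ± 287 to 4308 ± 1378 at ZT2 (SD, n = 6 and 7), a log2 difference of 3.02 ± 0.30 (SE), and by 3.30 ± 0.37 at ZT14. Hspbp1, another exchange factor, and Stub1, a ubiquitin ligase that marks HSP70 clients, rose at ZT2 (0.84 and 0.89). Hspa4l, the HSP110 relative of Hsph1, fell at ZT2 (-0.68), with all 7 fasted libraries below the ad libitum ones, as for 8.64% of genes.

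Of 11 HSP90 co-chaperones, 2 rose and 2 fell at ZT2 (median 0.17) and 1 rose and 1 fell at ZT14 (median 0.07). These shares are close to those of all genes, 18.3% and 19.2% at ZT2 and 9.66% and 8.81% at ZT14. Cdc37, which brings kinases to HSP90, and Fkbp4, which serves steroid receptors, rose at ZT2 (1.06 and 0.73), while Ptges3, or p23, and Tomm34 fell (-0.77 and -0.50). At ZT14 Fkbp4 rose and Tomm34 fell (0.72 and -0.77). Of 7 further small heat shock genes, 3 were high enough to test, and Hspb8, which works with Bag3 in removing misfolded proteins, rose at both times (1.45 ± 0.17 and 1.75 ± 0.20, SE). Of the 8 subunits of the cytosolic chaperonin, which folds actin and tubulin, Cct3 fell at ZT2 (-0.42) and none passed at ZT14. Of 4 other heat shock factors and HSF1 regulators, Hsf2 fell at both times (-2.20 ± 0.32 and -2.05 ± 0.39, SE). Among 7 relatives in the endoplasmic reticulum and mitochondria, Hspa5, the HSP70 of the endoplasmic reticulum, rose at both times (1.77 and 1.14) and its exchange factor Hyou1 fell at both (-1.68 and -2.29). Hsp90b1, the HSP90 of the same compartment, rose at ZT2 (0.53) and Hspe1, a mitochondrial co-chaperonin, fell (-1.07).

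**Figure D4:**
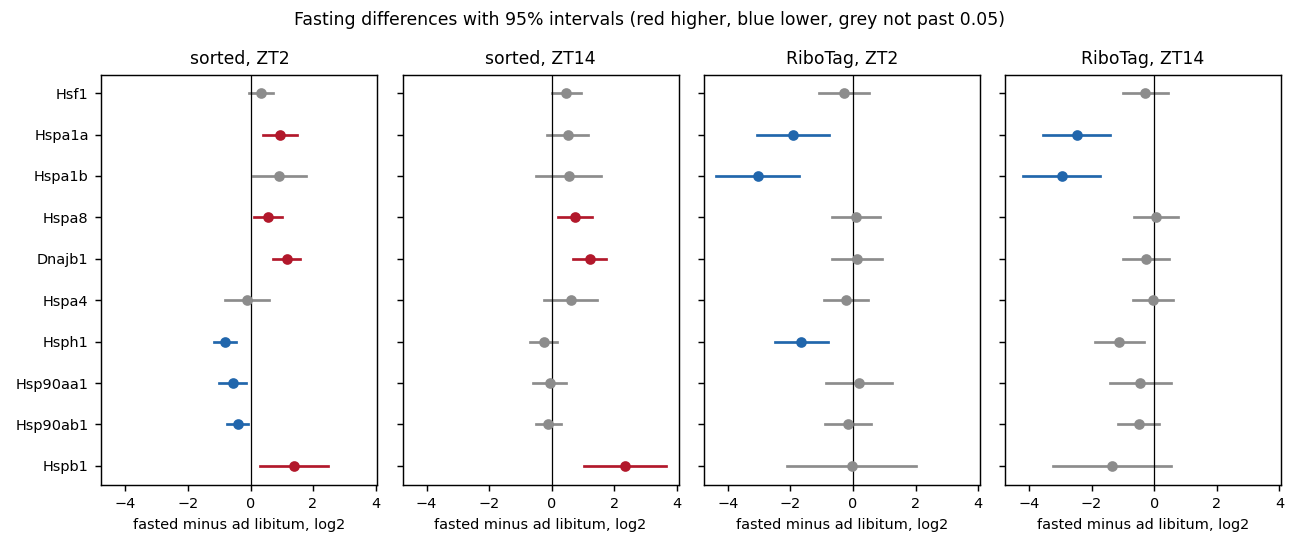
Log2 difference, fasted minus ad libitum, of the 10 genes with its 95% interval, in sorted cells and in RiboTag RNA at ZT2 and ZT14; red passed the threshold as higher, blue as lower, grey did not pass. Dnajb1, Hspa8 and Hspb1 are red in both sorted panels, and Hspa1a and Hspa1b are blue in both RiboTag panels.

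Refeeding for 1 h. The comparison with fasted cells asks what changes within 1 h of food, and the comparison with ad libitum cells what has not returned, and each shares its libraries with the fasting comparison above. Refed minus fasted, 1 of the 10 genes rose and 1 fell at ZT2 (10.8% and 11.1% of all genes did), and 0 rose and 1 fell at ZT14 (6.36% and 5.30%). Refed minus ad libitum, 3 rose and 0 fell at ZT2 (9.01% and 8.72% of all genes, or 1346 higher and 1302 lower by limma against 1210 and 560 by edgeR). At ZT14 0 passed by limma or edgeR (0.375% of all genes did by limma) and 1, Hspb1, had an unadjusted p under 0.05.

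Hsf1 fell with refeeding at ZT2. The 5 refed libraries had 312, 473, 594, 602 and 666 against 629, 834 and 1068 in the 7 fasted ones, and 4 of 5 lay below all fasted ones (log2 difference -0.75 ± 0.19 (SE), limma adjusted p = 0.00428, edgeR adjusted p = 0.0138). At ZT14 the 4 refed libraries had 546, 572, 868 and 925, 3 of them below all 8 fasted ones (log2 difference -0.58 ± 0.20 (SE), limma adjusted p = 0.0553). The ZT14 decrease passed with the replicate number as a block (-0.64, limma adjusted p = 0.0396), with the GC and length correction (-0.79, limma adjusted p = 0.00391) and without fasted replicate 5 (-0.58) or refed replicate 3 (-0.71) or 4 (-0.68). Hsp90ab1 rose with refeeding at ZT2, with 36799.9, 40179.5, 40341, 41491 and 57519 in the refed libraries against 19480.0, 27902 and 39202 (log2 difference 0.56 ± 0.17 (SE), limma adjusted p = 0.0158). The highest value was that of refed replicate 4, a library that stood apart, and without it the difference was 0.45, limma adjusted p = 0.0755. At ZT14 Hsp90ab1 had 31889, 32274, 37408 and 43292 refed and did not pass (log2 difference 0.32 ± 0.18 (SE), limma adjusted p = 0.266). With the GC and length correction it passed there (0.54, limma adjusted p = 0.036).

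Hspa1a, Hspa1b and Dnajb1 were above their ad libitum levels after 1 h of food at ZT2. Hspa1a had 894, 899, 1067, 1219.5 and 1462 in the 5 refed libraries, all above the highest ad libitum value of 794, as held for 4.96% of genes in this comparison. The increase over ad libitum was 2.3-fold (95% interval 1.53 to 3.46) (log2 difference 1.20 ± 0.29 (SE), limma adjusted p = 0.00428), and it passed under all 9 other settings and without any of the libraries of these groups. Hspa1b had 365, 389, 664, 693 and 1233 refed (log2 difference 1.41 ± 0.46 (SE), limma adjusted p = 0.0289, edgeR adjusted p = 0.0837). Its difference rested on single libraries: without refed replicate 4 and ad libitum replicate 4 it was 0.96, limma adjusted p = 0.25, and the call was lost in 5 of 11 cases of 1 library left out. Dnajb1 had 1447, 2146, 2356, 2969.9 and 3384 refed, 4 of 5 above all ad libitum libraries (log2 difference 0.92 ± 0.24 (SE), limma adjusted p = 0.00681). Hspa8 had 45087, 46475, 64033, 64065 and 72862, all 5 above the ad libitum maximum of 44131, but did not pass by limma (log2 difference 0.63 ± 0.24 (SE), limma adjusted p = 0.061, edgeR adjusted p = 0.0322). It passed by edgeR, with trimmed-mean scaling, in 1 fit over all libraries and without refed replicate 3 (0.63 to 0.73). Against fasted cells at ZT2, none of these 4 genes differed past the threshold (log2 differences 0.26, 0.49, -0.23 and 0.09), except Hspa1a with the GC and length correction (0.83, limma adjusted p = 0.0171).

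At ZT14 Dnajb1 fell with refeeding, with 1784, 3116, 3195 and 3415 in the 4 refed libraries, all below all 8 fasted ones, as held for 4.47% of genes (log2 difference -0.75 ± 0.24 (SE), limma adjusted p = 0.0361). The call passed under only 1 of the 8 other settings, the pseudocount of 10. The difference was smaller with the GC and length correction (-0.53, limma adjusted p = 0.158), and with the block as well it was -0.41, limma adjusted p = 0.324. With the block alone the limma adjusted p was 0.106, with no filter 0.0525, with trimmed-mean scaling 0.0624, in 1 fit over all libraries 0.118, and the edgeR adjusted p was 0.0833. Without refed replicate 2 the difference was -0.53, limma adjusted p = 0.247. The call was also lost without refed replicate 1 or fasted replicate 6, 7 or 8, with differences of -0.80 to -0.66. Hspa1a had 514, 713, 749.6 and 898 and Hspa1b 225, 398, 439 and 568 refed at ZT14, and the lowest value of each gene lay below all ad libitum and fasted libraries, with the other 3 inside their combined range. Hsph1 had 5173, 5281, 6720.2, 7445 and 10254 refed at ZT2 and 7161, 8376, 8419 and 11232 at ZT14, and the groups overlapped the fasted and ad libitum ones. Hspb1 had 39.3, 45.8, 59.1, 186 and 379 refed at ZT2 and 109, 182, 192 and 222 at ZT14, where all 4 lay above all 3 ad libitum libraries, as held for 6.99% of genes (log2 difference 2.05 ± 0.73 (SE), limma adjusted p = 0.392). Hspa4 had 381, 616, 919, 1031 and 1934 at ZT2 and 927, 1262, 1753 and 2433 at ZT14, with overlap. Hsp90aa1 had 14299.5, 16297, 16508, 16693 and 19031 at ZT2 and 10794, 11818, 13304 and 14564 at ZT14, and neither gene passed in any of these comparisons. Hsph1 and Hspb1 did not pass against fasted or ad libitum cells, apart from Hsph1 without refed ZT2 replicate 3 against ad libitum (-0.56, limma adjusted p = 0.0426) and Hspb1 without refed ZT2 replicate 1 against fasted (-1.74, limma adjusted p = 0.0233).

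Among the partners, Bag1 was at 4308 ± 1378 in fasted and 366 ± 201 in refed ZT2 libraries (SD, n = 7 and 5). Dnaja4 was lower in the refed ones as well (log2 difference -3.66 ± 0.32 for Bag1 and -1.33 ± 0.22 for Dnaja4, SE). Both were lower at ZT14 too (-3.57 and -1.51). The refed libraries sat with the ad libitum ones in Cebpb, Alyref and Rn45s, and the part of that pattern in these differences was not tested. Hsf2 rose (2.04 ± 0.34), as did the chaperonin subunits Cct3, Cct2 and Cct6a (0.67, 0.55 and 0.45), 3 of 8 against 10.8% of all genes. Of the 12 immediate early genes, 0 rose and 8 fell at ZT2, against 10.8% and 11.1% of all genes. Their summed level was 10225 to 17044 in the refed ZT2 libraries. That is below the fasted range and overlaps the ad libitum range. The part of these genes in the refed chaperone levels was not tested.

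Fasting in ribosome-bound RNA. In the RiboTag experiment the same question was asked without sorting, and the inducible HSP70 genes were lower in fasted mice. Of the 10 genes, 0 rose and 3 fell at ZT2, against 4.08% and 3.81% of all genes, or 630 higher and 589 lower by limma against 1009 and 458 by edgeR. At ZT14 0 rose and 2 fell, against 4.15% and 1.14% of all genes. By edgeR the same numbers of members passed, 3 and 2. The median over all genes was itself below 0, at -0.19 and -0.16 on the log2 scale, and near 0 by edgeR (-0.00 and 0.02).

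Hspa1a stood at 257, 321 and 499 in the 3 ad libitum and 55.8, 74.6, 87.8, 102 and 161 in the 5 fasted libraries at ZT2. At ZT14 it stood at 398, 516, 691 and 1684 in the 4 ad libitum and 42.5, 107, 139, 178 and 263 in the 5 fasted ones. All fasted libraries lay below all ad libitum ones at each time, as held for 11.1% of genes at ZT2 and 8.00% at ZT14. The level was 0.264-fold (95% interval 0.118 to 0.588) of ad libitum at ZT2 (log2 difference -1.92 ± 0.55 (SE), limma adjusted p = 0.0396, edgeR adjusted p = 0.0408) and 0.179-fold (95% interval 0.0857 to 0.375) at ZT14 (log2 difference -2.48 ± 0.51 (SE), limma adjusted p = 0.0047, edgeR adjusted p = 0.00553). The ZT2 call did not pass with the replicate number as a block (limma adjusted p = 0.0706), without fasted replicates 3 and 5 (-1.97, limma adjusted p = 0.0825), or in 6 of 8 cases of 1 library left out (-2.14 to -1.66), while the ZT14 call passed in all.

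Hspa1b stood at 146, 176 and 463 ad libitum and 13, 18.2, 26.7, 43.6 and 49.9 fasted at ZT2. At ZT14 the ad libitum libraries had 227, 324, 358 and 1441 and the fasted ones 31.1, 43, 46.3, 90.5 and 94.7, again without overlap. Groups lay apart in this direction for 11.1% of genes at ZT2 and 8.00% at ZT14. The level was 0.122-fold (95% interval 0.0485 to 0.305) of ad libitum at ZT2 (log2 difference -3.04 ± 0.63 (SE), limma adjusted p = 0.00709) and 0.128-fold (95% interval 0.0551 to 0.298) at ZT14 (log2 difference -2.96 ± 0.58 (SE), limma adjusted p = 0.00337). Without fasted replicates 3 and 5 the ZT2 difference was -2.93, limma adjusted p = 0.0158, and without ad libitum replicate 2 it was -2.53, limma adjusted p = 0.0667. The ad libitum ZT14 mean of 587 ± 572 (SD, n = 4) was raised by replicate 1, and without any 1 library the ZT14 difference was -3.28 to -2.40 and passed.

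Hsph1 was also lower, in the direction seen in sorted cells. It stood at 8121, 11420.0 and 15149 ad libitum and 1737, 2581, 3871, 5673 and 5744 fasted at ZT2. At ZT14 the ad libitum libraries had 9412, 9685, 10545 and 11662 and the fasted ones 2817, 3697, 4454, 6458 and 8091. All 5 fasted libraries lay below all ad libitum ones each time, as held for 11.1% of genes at ZT2 and 8.00% at ZT14. Hsph1 fell at ZT2 (log2 difference -1.66 ± 0.40 (SE), limma adjusted p = 0.0177, edgeR adjusted p = 0.0406) and did not pass at ZT14 (log2 difference -1.11 ± 0.37 (SE), limma adjusted p = 0.0927). The ZT2 value was -1.16, limma adjusted p = 0.0608, without fasted replicates 3 and 5, and the call was lost without ad libitum replicate 2 or 3 (-1.64 and -1.44). At ZT14 it passed without fasted replicate 2 (-1.31, limma adjusted p = 0.0485).

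The other 7 genes did not pass in RiboTag RNA. Dnajb1 stood at 1206, 1227 and 2324 ad libitum and 929, 1283, 1893, 2152 and 2529 fasted at ZT2. At ZT14 it stood at 2904, 3009.9, 3041 and 3552 ad libitum and 1237, 2255, 3109.9, 3162 and 4184 fasted, so the groups overlapped each time. Its differences were 0.13 ± 0.38 (SE) and -0.27 ± 0.35 (SE), with 95% intervals of -0.67 to 0.93 and -1.01 to 0.47. Hspa8 stood at 24625, 26553 and 35111 ad libitum and 23906, 24037, 26081, 28786 and 61584 fasted at ZT2, where only fasted replicate 2 was high. At ZT14 it stood at 25309, 25518, 27017 and 29036 ad libitum and 14409.8, 29297, 29983, 32529 and 37979 fasted. Its intervals were -0.66 to 0.87 and -0.66 to 0.75. Hspb1 ran from 106 to 1069.9 ad libitum and 155 to 1594 fasted at ZT2, with single high libraries in each group, and its intervals of -2.10 to 2.01 and -3.22 to 0.55 span 0. Hsp90aa1 in fasted ZT2 ran from 6462 to 36742, with the highest value in replicate 3. Hsp90ab1, Hspa4 and Hsf1 had differences of -0.16, -0.23 and -0.29 at ZT2, and -0.50, -0.03 and -0.28 at ZT14. Among the partners, Bag1 rose here as well (2.96 ± 0.35 and 3.20 ± 0.32, SE), St13 and Hspa4l fell at ZT2 (-1.01 and -1.30), Hyou1 fell at both times (-2.83 and -2.08), and 0 of 8 J-domain co-chaperones passed. Of the 12 immediate early genes, 1, Jund, rose at each time, where 4.08% and 4.15% of all genes did. The summed levels of the 12 overlapped (4019 to 7728 ad libitum and 3612 to 18522 fasted at ZT2, 5504 to 11935 and 3942 to 21574 at ZT14). The AgRP neuron markers summed to 28151 to 130133 in the ad libitum and 174652 to 4252870 in the fasted ZT2 libraries, without overlap, and to 68043 to 89020.2 and 18079 to 302714 at ZT14. The oligodendrocyte sums were 11557 to 146772 and 8734 to 222393 at ZT2, and 14153 to 75309 and 14560.3 to 88636 at ZT14. The endothelial sums were 814 to 14264 and 1885 to 22027 at ZT2, and 3041 to 19573 and 1155 to 32646 at ZT14, where their median was 4647 ad libitum and 1749 fasted. The sums of the POMC neuron, astrocyte, tanycyte and microglia markers overlapped between the groups at each time as well. The part of these cells in the Hspa1a, Hspa1b and Hsph1 results was not tested. The effect of fasting was not shown to differ between ZT2 and ZT14 for any member, with 0 past the threshold by limma or edgeR, 0 at an unadjusted p under 0.05 and 0% of all genes called.

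Whether fasting acted differently in the 2 kinds of RNA was tested directly, in a comparison added after the data were seen, with all 80 libraries in 1 fit. For Hspa1a the fasting difference in RiboTag minus that in sorted cells was -2.87 ± 0.56 (SE) at ZT2 (limma adjusted p = 0.000886) and -2.99 ± 0.58 (SE) at ZT14 (limma adjusted p = 0.00186). For Hspa1b it was -3.96 ± 0.75 (SE) at ZT2 (limma adjusted p = 0.000733) and -3.50 ± 0.78 (SE) at ZT14 (limma adjusted p = 0.00768). These were the 2 members past the threshold at each time, both of them lower, where 4.75% and 0.593% of all genes were, and both genes kept their call under every other setting and without any of the libraries involved. Hspb1 at ZT14 came nearest of the rest (-3.68 ± 1.08 (SE), limma adjusted p = 0.0547), and with the replicate number as a block it passed (-4.09, limma adjusted p = 0.0335). It also passed with the GC and length correction (-3.94), and without RiboTag fasted replicate 3 (-4.28) or sorted fasted replicate 5, 6 or 8 (-3.92 to -3.76). Hsph1 at ZT2 passed without RiboTag fasted replicate 1 or 2 (-1.01 and -1.02, limma adjusted p = 0.0377 and 0.0370). Collection method, genotype and the other RNA in RiboTag libraries cannot be told apart here.

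In fed mice the inducible HSP70 genes did not differ past the threshold between the methods. Hspa1a in RiboTag minus sorted ad libitum libraries was -0.45 ± 0.43 (SE) at ZT2 (limma adjusted p = 0.403) and -0.14 ± 0.46 (SE) at ZT14, and Hspa1b was 0.01 ± 0.58 (SE) and -0.07 ± 0.63 (SE). With the GC and length correction Hspa1a did pass at ZT2 (-1.31, limma adjusted p = 0.00886). Of the 10 genes, 0 were higher and 1 was lower in RiboTag RNA at ZT2 (16.0% of all genes were lower), and 2 were higher and 0 lower at ZT14 (26.6% of all genes were higher, or 4489 higher and 2193 lower against 3587 and 2900 by edgeR). Hsp90aa1 was lower in RiboTag RNA at ZT2, with 9247, 9833 and 14164 against 16946, 19464 and 32559.8 in sorted cells (log2 difference -0.99 ± 0.33 (SE), limma adjusted p = 0.0107). All 3 lay below all 6, as held for 16.3% of genes, and the call was lost with the GC and length correction and without RiboTag replicate 1 or 2 (-0.64, -0.92 and -0.88). Hspb1 was higher in RiboTag RNA at ZT14, with 263, 303, 440.0 and 1399 against 9.21, 62.5 and 108 (log2 difference 3.51 ± 0.86 (SE), limma adjusted p = 0.000913), and all 4 lay above all 3, as held for 34.0% of genes. Hspb1 at ZT2 had 106, 260.1 and 1069.9 against 59.5, 84.5 and 129 and passed by edgeR (edgeR adjusted p = 0.0207) but not by limma (log2 difference 1.83 ± 0.80 (SE), limma adjusted p = 0.0549). Hspa4 passed at ZT14 by limma (log2 difference 1.13 ± 0.46 (SE), limma adjusted p = 0.0411) and not by edgeR (edgeR adjusted p = 0.323), with overlapping groups (1548, 1582, 1744 and 2025 against 369.6, 609 and 2113). Trimmed-mean scaling lowered the median of all genes at ZT14 from 0.33 to 0.20 on the log2 scale, and under it Hspa4 did not pass (1.00, limma adjusted p = 0.0784).

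Leptin, BMAL1 and time of day. The leptin series asks how leptin, a satiety hormone from fat, and loss of the clock factor BMAL1 act on the same genes. In its 14 comparisons (leptin against PBS, knockout against control, ZT14 against ZT2, and the difference in leptin effect between genotypes) none of the 140 tests of the 10 genes passed by limma or edgeR, 7 had an unadjusted p under 0.05, and the lowest limma adjusted p was 0.437. Log2 differences ran from -1.57 to 0.99, with a median size of 0.23. Few genes of any kind passed. For leptin against PBS 0.0215% and 0% of all genes did in controls at ZT2 and ZT14, and 0.423% and 0.0861% in knockouts. For knockout against control 0.0215% and 0.00717% did after PBS, and 0.00717% and 0.0215% after leptin. For ZT14 against ZT2 0.00717% and 0% did in controls after PBS and leptin, and 0% and 0.0430% in knockouts, and 0% at either time for the difference in leptin effect. RNA of Arntl, the BMAL1 gene, was still present in knockouts. At ZT2 it averaged 368 ± 144 in knockouts and 765 ± 385 in controls after PBS, and 344 ± 88.7 and 908 ± 273 after leptin (SD). At ZT14 it averaged 283 ± 96.8 and 327 ± 85.1 after PBS, and 172 ± 80.6 and 284 ± 65.3 after leptin (SD).

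After PBS, control libraries had Hspa1a at 389.8, 461, 834 and 1412 at ZT2 and 334, 480.4 and 723 at ZT14, and after leptin at 427, 663 and 888 and 583, 731 and 1400.2. Knockout libraries had 556, 711 and 920.4 and 435, 757 and 1459 after PBS, and 452, 525 and 986 and 744, 756 and 1013 after leptin. Of the 8 groups, controls after PBS and knockouts after leptin at ZT14 did not overlap for Hspa1a, a pair that differs in both genotype and treatment and was not tested, and the 25 libraries of Dnajb1 ran from 1011 to 4507. The constitutive genes were steadier, with group means of 38152 to 47483 for Hsp90ab1 and 42608 to 65439.5 for Hspa8. After PBS at ZT14, Hsph1 was at 8753, 12219 and 13707 in knockouts and 7493, 7843 and 8193 in controls (log2 difference 0.54 ± 0.21 (SE), limma adjusted p = 0.533), and Hsf1 at 721, 1035 and 1171 and 458, 726 and 735 (log2 difference 0.61 ± 0.26 (SE), limma adjusted p = 0.59). Hspa4 after leptin at ZT14 was at 389, 648 and 718 in knockouts and 746, 1588 and 1963 in controls (log2 difference -1.23 ± 0.50 (SE), limma adjusted p = 0.97). The Hsph1 groups did not overlap, as held for 5.70% of genes, nor did the Hspa4 groups (5.62%), while the Hsf1 groups did. In leptin-treated knockouts, Hspa4 was lower in all 3 ZT14 libraries than in the 3 ZT2 ones (952, 1390.4 and 1458 at ZT2, log2 difference -1.14 ± 0.50 (SE), limma adjusted p = 0.495), as held for 8.75% of genes. Dnajb1 was higher in all 3, with 2949, 3075 and 3148 at ZT14 and 1011, 1879 and 1903 at ZT2 (log2 difference 0.99 ± 0.46 (SE), limma adjusted p = 0.528), as held for 7.78% of genes. The other 2 were Hsph1 in knockouts, for leptin against PBS at ZT2 (log2 difference -0.48 ± 0.21 (SE), limma adjusted p = 0.497) and for ZT14 against ZT2 after leptin (log2 difference 0.51 ± 0.21 (SE), limma adjusted p = 0.437). None of these passed.

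**Figure D5:**
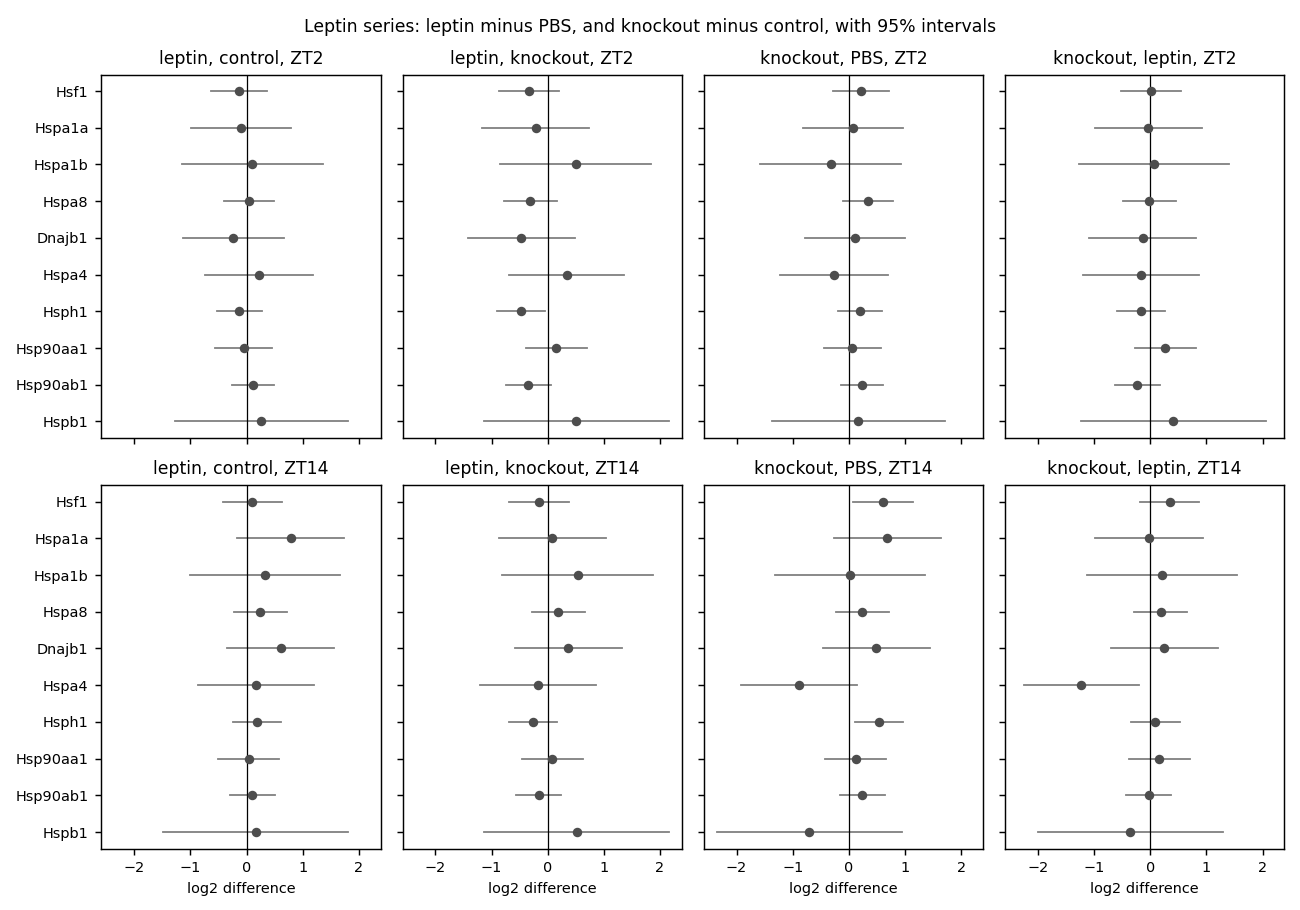
Log2 differences of the 10 genes with 95% intervals in the leptin series, leptin minus PBS (4 panels) and knockout minus control (4 panels), all in grey because none passed the threshold. The Hspa4, Hspb1, Hspa1a and Hspa1b intervals are wide and those of Hsp90ab1, Hspa8, Hsph1 and Hsf1 narrow.

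At ZT5 the libraries labelled knockout had Hspa1a at 184, 381 and 692 and those labelled control at 994 and 1110.3, without overlap, as held for 12.3% of genes. Hspa1b was at 133, 165 and 299.7 and 259.8 and 706. Neither passed (Hspa1a -1.52 ± 0.47 (SE), limma adjusted p = 0.511, and Hspa1b -1.19 ± 0.50 (SE), limma adjusted p = 0.551). Of all genes 0% passed by limma, 0 of the 10 did by edgeR, and these 2 had an unadjusted p under 0.05. Without the 2 libraries that went against their labels, 2 knockout libraries and 1 control remained, too few for a test to carry weight, and the differences were -1.48 for Hspa1a and -0.38 for Hspa1b. Set against the leptin-series controls given PBS at ZT2, the ZT5 controls had Hspa8 at 70434 and 81021 against 48349, 48854, 51705 and 53474 and Hsph1 at 4282 and 5183 against 7434, 7661, 8479 and 8928. Hspa8 was higher and Hsph1 lower in both ZT5 libraries than in all 4 others, as held for 19.7% and 22.6% of genes. Without control replicate 1, the library that went against its label, 1 ZT5 library remained and the differences were 0.68 for Hspa8 and -0.92 for Hsph1, given without a test. None of the 10 genes passed by limma or edgeR, with 17.6% of all genes past the threshold and 1 of the 10, Hsph1, at an unadjusted p under 0.05 (log2 difference -0.78 ± 0.32 (SE), limma adjusted p = 0.0852). With the GC and length correction Hsf1 passed (0.84, limma adjusted p = 0.0194). Hsph1 was at 3409 to 5947 in the ZT5 libraries, 1737 to 8091 in the 25 fasted ones and 4891 to 15149 in the other 50. Experiment and condition cannot be told apart in this comparison, nor in that of PBS controls with sorted ad libitum cells at ZT2, where none of the 10 passed by limma or edgeR (4.66% of all genes did by limma, 579 higher and 208 lower against 445 and 59 by edgeR). There 2 had an unadjusted p under 0.05, Dnajb1 (log2 difference 0.67 ± 0.33 (SE), limma adjusted p = 0.256) and Hsp90aa1 (log2 difference -0.73 ± 0.30 (SE), limma adjusted p = 0.159), and for Hsp90aa1 all 4 PBS libraries lay below all 6 others, as held for 5.20% of genes.

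For ZT14 against ZT2 within a feeding state, none of the 10 genes passed by limma or edgeR. The share of all genes past the threshold was 0% in ad libitum, 0.281% in fasted and 0.0268% in refed sorted cells, and 0% in ad libitum and fasted RiboTag RNA. Members with an unadjusted p under 0.05 numbered 3, 2 and 1 in the sorted groups and 1 and 1 in RiboTag RNA. In fasted sorted cells Dnajb1 was the nearest to the threshold, with 3703, 4712 and 6963 at ZT14 against 2026, 3095 and 4111 at ZT2 (log2 difference 0.75 ± 0.20 (SE), limma adjusted p = 0.107, edgeR adjusted p = 0.135). In ad libitum RiboTag RNA Dnajb1 was at 2904, 3009.9, 3041 and 3552 at ZT14 and 1206, 1227 and 2324 at ZT2, all 4 above all 3, as held for 2.43% of genes (log2 difference 1.05 ± 0.40 (SE), limma adjusted p = 1). In ad libitum sorted cells Hsp90aa1 was at 9786, 14834 and 15888 at ZT14, all 3 below the 6 ZT2 libraries, as held for 1.53% of genes (log2 difference -0.71 ± 0.27 (SE), limma adjusted p = 1).

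The members did not move as 1 block from library to library. Over the 80 libraries, after the group means were subtracted, Hspa1a and Hspa1b were the most alike (Pearson r = 0.80). Hsph1 and Dnajb1 followed (0.60), then Hspa1a and Dnajb1 (0.58). Hsp90aa1 and Hsf1 ran opposite (-0.56), as did Hsph1 and Hspb1 (-0.38). These libraries also differ in depth and in the other RNA they hold, and no test was made. The 3 genes outside the 10 that ran most closely with each member were picked from 10466. Those of Hspa8 were Cct5, Cct7 and Sars, of which Cct5 and Cct7 are chaperonin subunits (r = 0.87, 0.87 and 0.83). For Hsph1 they were Gprasp2, Rasgrf1 and Dnahc1 (0.85, 0.81 and 0.80). For Hsp90aa1 they were Rpl10, Bex1 and Bex4 (0.82, 0.81 and 0.79). For Hsf1 they were Anks3, Dbn1 and Dgka (0.79, 0.76 and 0.75). For Hspb1 they were Rexo2, Rnaset2b and Rwdd1 (0.76, 0.76 and 0.75). For Hspa4 they were Khdrbs1, Spock1 and Tmem57 (0.76, 0.75 and 0.73). For Hsp90ab1 they were Adprh, Tmem66 and Eif3c (0.70, 0.69 and 0.68). For Dnajb1 they were Rrad, Dnahc1 and Syngr3 (0.67, 0.58 and 0.57). For Hspa1b they were Cdkn2aip, Bnip2 and Gnai3 (0.56, 0.55 and 0.53). For Hspa1a they were Bcam, Itgb1 and Actn4 (0.52, 0.50 and 0.49). The ratio of Hspa1a to Hspa1b in a library had a median of 1.78 and ran from 1.08 to 8.82. It was 2.33 to 6.75 in fasted ZT2 RiboTag libraries and 1.08 to 2.19 in the ad libitum ones. At ZT14 the RiboTag groups overlapped, with 1.37 to 3 fasted and 1.17 to 1.93 ad libitum, and the highest ratio of all was in a sorted fasted ZT2 library. The fasted ZT2 RiboTag ratios rest on Hspa1b values of 13 to 49.9, and sequence shared by the 2 genes limits all these ratios.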

How the data were processed

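RNA of AgRP neurons was sequenced in 80 libraries amplified with SMART-seq v4, per the labels' protocols. The values are signal, or normalised counts, each library's counts over 1 size factor, as the authors deposited them. STAR 2.5.1, featureCounts, Subread, DESeq, DESeq2, R 3.5.1 and the mm10 build are named, per the submitters' processing notes, without their settings. In 79 libraries the values were whole multiples of 1 step within 0.1 of a read (at least 99.993% of values), so reads were recovered; sorted ad libitum ZT2 replicate 4 was left out of edgeR only. The plan had not foreseen this unit.

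Each experiment was fitted with limma 3.58.1 (R 4.3.3) on log2(value + 1), keeping genes that reached 10 in a number of libraries equal to the smallest group size (12940 to 15444 tested in each experiment, 16873 in all 80 libraries together), with Benjamini-Hochberg adjusted p under 0.05 over all genes. Fold changes are on that scale and understate changes of low genes. Differences are given with standard errors and 95% intervals. Alternatives were edgeR 4.0.16 (quasi-likelihood) on recovered reads, a pseudocount of 10, no filter, trimmed-mean scaling, replicate number as a block, GC and length correction, 1 fit for all libraries, each library left out, and, chosen after seeing the data, the 6 libraries that stood apart left out. The fits were also run on simulated data, and that outcome is not given here. No 2 libraries of a group were alike within sampling noise (138 pairs, lowest chi-square per degree of freedom 15.1).

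The naming rule takes all 10 members and, of each other list, up to 4 called genes with the smallest p. Outside the fasting and refeeding comparisons, some members that did not pass are given as counts. The 3 likest genes had a mean log2 value of at least 5 and no predicted symbol. Members and lists were chosen with earlier results of these data known. Replicate numbers paired libraries, with every correlation over 0.1, only for leptin against PBS and time after leptin in controls (0.171 to 0.541 and 0.179 to 0.483), where no member passed in either fit. Gene positions are GENCODE M21, with 20929 symbols matched directly, 1919 by an older name and 489 not. The figures were drawn with matplotlib 3.10.9 from the values given.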

Additional observations from a re-analysis of the deposited data

Results flagged for a closer look

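Of 90 sets of 4 to 8 libraries (a gene in a group), 7 had a library far from the others, which is 7.78%. In each of the 7 it was the highest value. Chance flags about 1 in 20 independent sets with an even spread. These sets share libraries between genes, so no excess over chance can be read from the shares. Hspa1b was at 1441 in RiboTag ad libitum ZT14 replicate 1, with the other 3 at 227 to 358. The same library had Hspb1 at 1399, with the others at 263 to 440. Hspb1 was also at 1594 in RiboTag fasted ZT2 replicate 3 (others 155 to 314) and at 999.5 in RiboTag fasted ZT14 replicate 3 (others 33.4 to 275). Hspa8 was at 61584 in RiboTag fasted ZT2 replicate 2 (others 23906 to 28786). In sorted cells, Dnajb1 was at 2044 in ad libitum ZT2 replicate 6 (others 853 to 1292) and Hsp90ab1 at 57519 in refed ZT2 replicate 4 (others 36800 to 41491).

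The effect of fasting differed between RiboTag RNA and sorted cells for the inducible HSP70 genes, by the limma test of the difference itself. For Hspa1b the difference was -3.96 ± 0.75 (SE, log2) at ZT2 and -3.50 ± 0.78 at ZT14, with limma adjusted p = 0.000733 and 0.00768. For Hspa1a it was -2.87 ± 0.56 at ZT2 and -2.99 ± 0.58 at ZT14, with limma adjusted p = 0.000886 and 0.00186. The Hspa1a difference was -3.14 to -2.53 and the Hspa1b difference -3.99 to -3.30 over the other settings, all past the threshold.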

How the results depend on the processing

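Of 6480 recomputed member differences, 6324 kept their side of the threshold, many of them with no call to lose, 113 lost a call and 43 gained one. None that had a call in either fit changed direction. Among the 6324, 393 changed direction without a call in either fit. The number of the 10 genes that passed changed by more than 1.5 times in these cases. Fasting in sorted cells at ZT2, 7 genes, gave 3 with no filter and 4 by edgeR, in 1 fit over all libraries or without the libraries that stood apart. Refed minus fasted gave, for 2 genes at ZT2, 1 without those libraries, and for 1 gene at ZT14, 0 with no filter, trimmed-mean scaling, edgeR or 1 fit and 2 with the GC and length correction, with or without the block. RiboTag fasting at ZT2, 3 genes, gave 1 with the block and GC and length correction and 1 without the libraries that stood apart. RiboTag minus sorted gave, for 1 gene at ZT2, 2 with a pseudocount of 10, the GC and length correction or edgeR, and for 2 genes at ZT14, 1 with no filter, trimmed-mean scaling, the block with or without the correction, or edgeR. ZT5 minus PBS controls, 0 genes, gave 1 with the correction, with or without the block. With 1 library left out, fasting in sorted cells gave 4 to 7 at ZT2 and 1 to 3 at ZT14, refed minus fasted 1 to 3 and 0 to 2, refed minus ad libitum at ZT2 2 to 5, RiboTag fasting at ZT2 0 to 3, and RiboTag minus sorted 0 to 2 and 1 to 2. The causes were not tested.

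Outside the pairs named above, libraries share only a number. The replicate block gave 7 and 3 genes for fasting in sorted cells at ZT2 and ZT14, and it ended or made the calls named in the text for Hspa1a, Dnajb1, Hsf1 and Hspb1 and that of Hspa4 in RiboTag minus sorted at ZT14 (1.04, limma adjusted p = 0.0743). Groups of 2 to 8 libraries limit what can be seen for Hspb1, Hspa1b, Hspa1a and Hspa4, whose values spread most.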
